A study of Mus musculus with 6 samples.

Results

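Histone demethylases, SET-domain methyltransferases and deacetylases remove or add the methyl and acetyl groups on histones, and the group described here holds the genes of these enzymes in cultured mouse B cells. Its members were taken by gene name, as the rows of the deposited expression table whose names begin with Kdm, Hdac, Sirt, Setd, Ehmt, Suv39h, Suv420h, Whsc1 or Nsd1, with Kdm5d left out. This gave 52 genes of the 21307 rows: 11 zinc-dependent deacetylases (Hdac), 7 sirtuins, 15 demethylases (Kdm) and 19 SET-domain enzymes. Enzymes that carry other names in the table, such as Mll1, are not members and are given further on as partners.

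RNA was sequenced from B cells isolated from the bone marrow of E-mu-myc;Prmt5F/FCreER transgenic mice (strain C57BL/6 x 129S1/SvlmJ, 6 to 8 weeks old, before tumours) and grown with IL-7, a survival and growth factor of early B cells, at 5 ng/ul. The E-mu-myc transgene expresses MYC in B cells, and the floxed alleles of Prmt5, an arginine methyltransferase gene, are cut when 4-hydroxytamoxifen (4-OHT) activates CreER; the sources used here do not name the promoter that drives CreER. The ethanol group (3 libraries) and the 4-OHT group (3 libraries, 50 nM for 24 h) were both washed and kept for 5 days more, and all 6 libraries share the genotype, so the effects of 4-OHT, of active Cre and of the loss of Prmt5 cannot be told apart. The titles of the same libraries read WT and PT, without saying what these stand for, while the submitters' overall design calls the animals wild type and pre-tumoral. Both conflict with the shared genotype; the treatment labels and the condition names of the table are followed here, and the conflict was not resolved. The table gives a single FPKM (mapped fragments normalised for transcript length and sequencing depth) per gene and condition. There is no replicate error, SD, test or depth for any value, and each difference below is a size alone.

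Histone marks are set and erased by opposed enzymes. Most deacetylases of class I sit in the repressor complexes NuRD, SIN3, CoREST and NCoR, and class IIa enzymes shuttle between nucleus and cytoplasm. Sirtuins depend on NAD and also act on proteins other than histones. Most SET-domain enzymes methylate 1 lysine of H3 or H4, and demethylases use either flavin (the LSD enzymes, Kdm1) or iron and 2-oxoglutarate (the JmjC enzymes). In early B cells Hdac1 and Hdac2 together are known to be needed for proliferation, and Hdac7 for keeping myeloid genes silent.

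Prmt5, the targeted gene, was at 41.6 FPKM with ethanol and 5.71 FPKM with 4-OHT, and Myc was at 402 and 213 FPKM. All 14 compared pro-B and pre-B cell markers were lower in 4-OHT, and their summed level was 2227 FPKM with ethanol and 951 FPKM with 4-OHT. The 10 neutrophil markers compared were all higher and summed to 396 and 3616 FPKM, the 12 monocyte and macrophage markers of the table to 706 and 1534 FPKM, and the 10 stromal markers to 33.4 and 544 FPKM. All 8 compared megakaryocyte and platelet markers, all 7 of mast cells, basophils and eosinophils and all 6 of T and natural killer cells were higher, with median log2 ratios of 1.79, 1.62 and 0.83. Of the 3 compared erythroid markers 2 were higher, and the 7 of the table summed to 88.3 and 89.1 FPKM. No marker of these lists was listed at 0. All 20 S phase genes and all 20 genes of G2 and mitosis were lower, with median log2 ratios of -0.52 and -0.79. In bulk RNA, fewer cells of a type and less RNA per cell cannot be told apart, and the part of these shifts in the values below was not tested.

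Most of the enzyme genes were slightly lower in 4-OHT. The ratio used throughout divides (FPKM + 1) of 4-OHT by (FPKM + 1) of ethanol and is given as log2, so negative values are lower in 4-OHT, and low genes have their change understated. It was computed for the 49 members whose mean reached 1 FPKM with neither value at 0. Of these, 40 were lower and 9 higher in 4-OHT. That is 81.6% lower, against 55.1% of all 10856 rows compared in the same way, and 18.4% higher, against 44.9%, and the member median was -0.28 against -0.07. With median-of-ratios scaling, which sets the median of all rows to 0, 33 members were lower and 16 higher (67.3% lower, against 50% of all rows).

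The differences were small. Within 1.5-fold in either direction lay 42 of 49 members (85.7%), against 67.7% of all rows. At least 1.5-fold lower were 6 members, or 12.2% against 12.8% of all rows, which is the background share. Under median-of-ratios scaling 2 of the 6 remained, Whsc1 and Setd6 (4.08% of members, against 9.90% of all rows), while Hdac2, Kdm1b, Hdac7 and Suv39h2 came to log2 ratios of -0.55, -0.56, -0.53 and -0.54, just inside 1.5-fold. At least 1.5-fold higher was 1 member, or 2.04% against 19.5% of all rows. No member was 2-fold lower (2.58% of all rows) or 2-fold higher (10.4% of all rows). Among the 9419 rows within the members' own range of mean FPKM (1.68 to 80.1 FPKM), 68.8% lay within 1.5-fold. At least 1.5-fold lower were 12.8% of these rows, and at least 1.5-fold higher 18.5%. Since this range holds 9419 of the 10856 compared rows, it cannot show how the shares depend on level. The median of mean FPKM was 11.6 for these rows and 17.9 for the members. Summed over all 52 members, the level was 1057 FPKM with ethanol and 897 FPKM with 4-OHT.

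**Figure D1:**
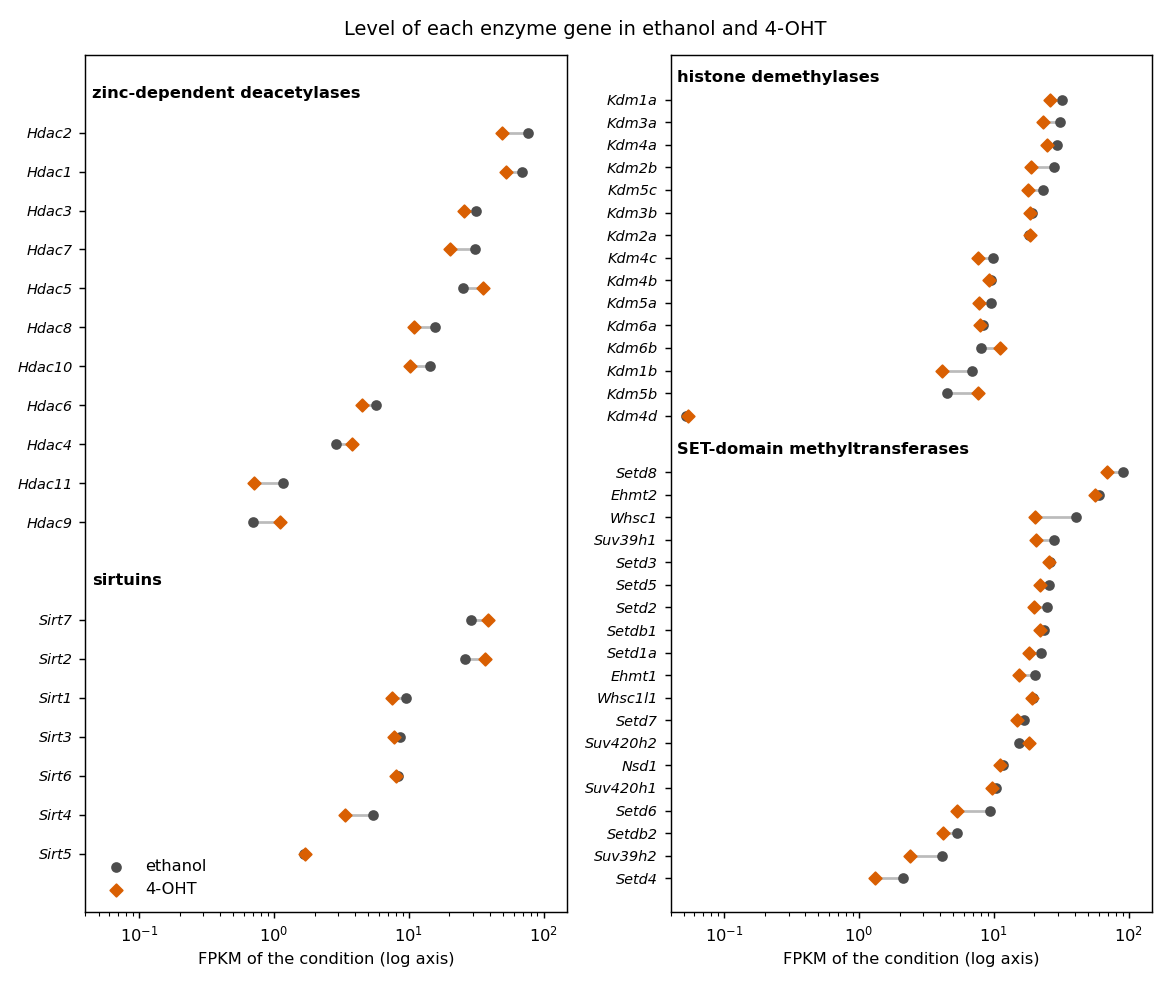
FPKM of each of the 52 enzyme genes (log axis) in ethanol (grey circles) and 4-OHT (orange diamonds), grouped by kind of enzyme and ordered by the ethanol level; each point is the authors' value for a whole condition. Setd8 is the highest in both conditions, and most diamonds lie slightly to the left of their circles.

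The most abundant members were largely the same in both conditions. FPKM is scaled to transcript length, so levels may be set beside each other between genes. Setd8 was the most abundant member in both conditions, at 91.1 FPKM with ethanol and 69.1 FPKM with 4-OHT. In ethanol it was followed by Hdac2, Hdac1, Ehmt2 and Whsc1. In 4-OHT it was followed by Ehmt2, Hdac1, Hdac2 and Sirt7. At least 5 places apart in the 2 orders were 15 of the 52 members, and at least 10 places apart were 3: Kdm6b (rank 40 in ethanol and 28 in 4-OHT), Whsc1 (5 and 16) and Hdac5 (17 and 7). Without replicates, the spread around neighbouring levels is unknown.

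All 4 class I deacetylases, mostly enzymes of the repressor complexes, were lower in 4-OHT, against 55.1% of all rows. The class median log2 ratio was -0.42. Hdac2 (mm9, chr10:36694350-36721694) was at 76.7 FPKM with ethanol and 49.2 FPKM with 4-OHT, 1.55-fold lower. Hdac1, its close paralog and usual partner in the same complexes, was at 68.8 and 52.6 FPKM, 1.30-fold lower. The levels of Hdac1 and Hdac2 thus changed order: Hdac2 made up 52.7% of their sum in ethanol and 48.4% in 4-OHT. Hdac3, the catalytic subunit of the NCoR complex, was at 31.3 and 25.7 FPKM. Hdac8, which acts on the cohesin subunit SMC3, was at 15.6 and 11.0 FPKM. The class summed to 192 FPKM with ethanol and 138 FPKM with 4-OHT, which is 28.0% less.

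The class IIa deacetylases, which bind MEF2 factors and have little catalytic activity of their own, went apart. Hdac7 (mm9, chr15:97614796-97674933), a repressor of myeloid genes in B-cell precursors, was at 31.0 FPKM with ethanol and 20.1 FPKM with 4-OHT, 1.52-fold lower. Hdac5 (mm9, chr11:102057061-102091486) was at 25.3 and 35.5 FPKM, 1.39-fold higher. The class sum was nearly equal, at 59.9 and 60.5 FPKM, while the share of Hdac7 was 51.8% in ethanol and 33.2% in 4-OHT and the share of Hdac5 was 42.2% and 58.7%. Hdac5 was thus below Hdac7 in ethanol and above it in 4-OHT. Hdac4 was at 2.91 and 3.82 FPKM. Hdac9, at 0.694 and 1.11 FPKM, had a mean under 1 FPKM and was not compared. In the same comparison the neutrophil markers had a median log2 ratio of 3.26 and the macrophage markers 1.05, and their part in the Hdac4 and Hdac5 values was not tested.

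Both class IIb enzymes were lower, as were 55.1% of all rows. Hdac6, the tubulin deacetylase, was at 5.68 FPKM with ethanol and 4.48 FPKM with 4-OHT, and Hdac10, a polyamine deacetylase, was at 14.4 and 10.1 FPKM. Hdac11, the only class IV enzyme, was at 1.17 and 0.717 FPKM, with a mean under 1 FPKM, and was not compared. Over all zinc-dependent deacetylases, 7 of 9 compared genes were lower (77.8%, against 55.1% of all rows), with a median log2 ratio of -0.38.

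**Figure D2:**
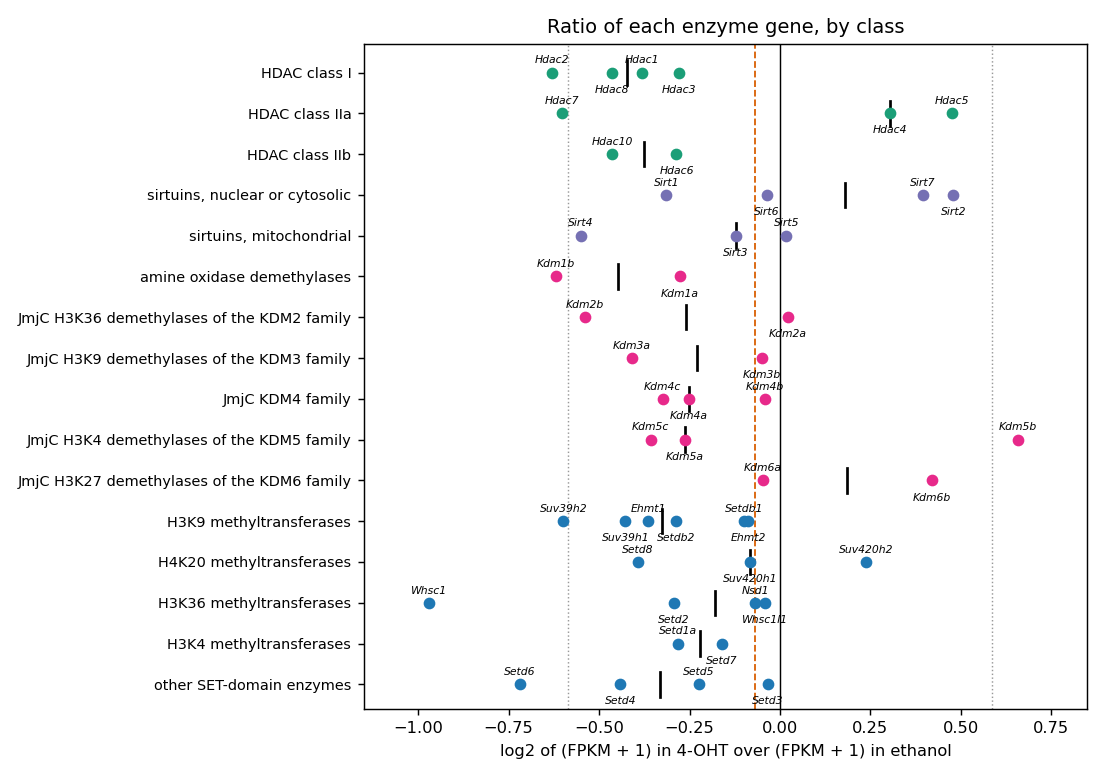
Log2 of (FPKM + 1) with 4-OHT divided by that with ethanol for the 49 compared enzyme genes, by class; points are genes, black bars class medians, the dashed line is the median of all 10856 compared rows (-0.07) and the dotted lines mark 1.5-fold. Whsc1 is the lowest point (-0.97) and Kdm5b the highest (0.66). Points lie on both sides of 0 for the class IIa deacetylases, both sirtuin classes, the KDM2, KDM5 and KDM6 families and the H4K20 methyltransferases.

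The sirtuins did not share a direction. The 2 most abundant were higher in 4-OHT: Sirt2, a mostly cytosolic deacetylase, was at 26.3 FPKM with ethanol and 37.0 FPKM with 4-OHT (1.39-fold higher), and Sirt7, a nucleolar enzyme linked to ribosomal DNA transcription, was at 29.1 and 38.6 FPKM (1.31-fold higher). The sirtuin sum was 89.0 FPKM with ethanol and 104 FPKM with 4-OHT, 17.0% more, and Sirt2 had the second highest ratio of all members. Sirt1, a nuclear deacetylase of p53 and other factors, was at 9.60 and 7.53 FPKM. Sirt6, which acts on H3K9 acetylation, was at 8.28 and 8.05 FPKM, a difference whose direction turns to higher under median-of-ratios scaling. Of the mitochondrial sirtuins, Sirt4 was at 5.43 and 3.39 FPKM (1.46-fold lower), Sirt3, the main mitochondrial deacetylase, at 8.59 and 7.82 FPKM, and Sirt5, a desuccinylase, at 1.67 and 1.70 FPKM. Over the 7 sirtuins, 4 were lower (57.1%, against 55.1% of all rows) and 3 higher (42.9%, against 44.9%), which is near the background split. The sirtuin median log2 ratio was -0.04, against -0.07 for all rows, or 0.03 under median-of-ratios scaling. Of the genes of NAD synthesis and use 6 of 10 were lower (60%, against 55.1% of all rows), with a median log2 ratio of -0.14. That median was -0.56 over the 7 genes left by a minimum mean of 5 FPKM (5 lower) and -0.01 over 12 genes with no filter. Nampt, the rate-limiting enzyme of NAD salvage, was at 26.9 and 29.6 FPKM. The NAD-consuming genes Parp1 (104 and 67.1 FPKM) and Cd38 (59.3 and 39.5 FPKM) were lower.

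Among SET-domain enzymes, 18 of 19 were lower in 4-OHT (94.7%, against 55.1% of all rows), with a median log2 ratio of -0.28. Under median-of-ratios scaling 15 of 19 were lower, where 50% of all rows were lower. The lowest ratio of all 49 members was that of Whsc1 (mm9, chr5:34185761-34240615), the H3K36 dimethyltransferase also named Nsd2, which is deleted in Wolf-Hirschhorn syndrome and overexpressed in a subset of myelomas. It was at 40.8 FPKM with ethanol and 20.3 FPKM with 4-OHT, 1.96-fold lower on the scale used here, and 2.90% of all compared rows had a ratio as low or lower. For Whsc1 the log2 fold change of the authors' deposited table is -1.01. Its paralogs Nsd1, at 11.6 and 11.0 FPKM, and Whsc1l1, also named Nsd3, at 19.7 and 19.1 FPKM, were nearly equal, and their slight differences turn to higher under median-of-ratios scaling. Whsc1 made up 56.6% of the NSD family sum in ethanol and 40.3% in 4-OHT. Setd2, the enzyme of H3K36 trimethylation that travels with RNA polymerase II, was at 24.7 and 19.99 FPKM.

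The H3K9 methyltransferases, which mark silent chromatin and are bound by HP1 proteins, were lower in 6 of 6 genes, against 55.1% of all rows. The class median log2 ratio was -0.33. Suv39h2 (mm9, chr2:3341403-3392258) was at 4.12 FPKM with ethanol and 2.38 FPKM with 4-OHT, 1.51-fold lower, and its more abundant paralog Suv39h1 (mm9, chrX:7638297-7651886) was at 27.8 and 20.4 FPKM, 1.35-fold lower. Both are the trimethylating enzymes of pericentromeric heterochromatin. Ehmt2 (G9a), the main dimethyltransferase of euchromatin, was at 60.2 and 56.6 FPKM, and its partner Ehmt1 (GLP) at 20.2 and 15.5 FPKM. Setdb1, which silences endogenous retroviruses together with TRIM28, was at 23.5 and 21.8 FPKM, and Setdb2 at 5.36 and 4.21 FPKM. The size of the difference thus ran from 1.06-fold for Ehmt2 to 1.51-fold for Suv39h2.

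Of the H4K20 enzymes, Setd8, the monomethyltransferase needed for passage through S phase and mitosis, was 1.31-fold lower. Suv420h1, an enzyme of di- and trimethylation, was at 10.3 FPKM with ethanol and 9.66 FPKM with 4-OHT. Suv420h2, which acts at heterochromatin, was at 15.3 and 18.3 FPKM and was the only SET-domain member with a higher value in 4-OHT at the deposited scaling. Of the H3K4 enzymes, Setd1a, a catalytic subunit of COMPASS, was at 22.2 and 18.1 FPKM, and Setd7, a monomethyltransferase with many non-histone substrates, at 16.8 and 14.9 FPKM. Setd6 (mm9, chr8:98239813-98242904), which methylates the NF-kB subunit RELA, was at 9.42 and 5.33 FPKM, 1.65-fold lower and second only to Whsc1 among members. Setd3, the histidine methyltransferase of actin, was at 26.3 and 25.6 FPKM, Setd5 at 25.8 and 22.0 FPKM, and Setd4 at 2.14 and 1.31 FPKM.

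Histone demethylases were lower in 11 of 14 compared genes (78.6%, against 55.1% of all rows), with a median log2 ratio of -0.26. Under median-of-ratios scaling 8 of 14 were lower, where 50% of all rows were lower. Both flavin-dependent enzymes were lower. Kdm1b (LSD2; mm9, chr13:47138908-47179982) was at 6.89 FPKM with ethanol and 4.14 FPKM with 4-OHT, 1.54-fold lower, and the more abundant Kdm1a (LSD1), the demethylase of the CoREST complex, was at 31.8 and 26.1 FPKM, 1.21-fold lower. Of the H3K36 demethylases, Kdm2b, which recruits a variant polycomb complex to CpG islands, was at 27.9 and 18.9 FPKM, whereas Kdm2a was near equal, at 18.2 and 18.4 FPKM. Kdm3a, an H3K9 demethylase, was at 31.0 and 23.1 FPKM, and its paralog Kdm3b at 19.2 and 18.5 FPKM. In the KDM4 family of H3K9 and H3K36 demethylases, Kdm4a was at 29.5 and 24.6 FPKM, Kdm4c at 9.82 and 7.64 FPKM, and Kdm4b at 9.57 and 9.28 FPKM. Kdm4d was listed near 0 in both conditions (0.0525 and 0.0541 FPKM) and was not compared.

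The H3K4 demethylases of the KDM5 family moved apart. Kdm5b (mm9, chr1:136456755-136529455) was at 4.51 FPKM with ethanol and 7.69 FPKM with 4-OHT, 1.58-fold higher and the highest ratio of all members, though 17.7% of all compared rows had a ratio as high or higher. Kdm5c, the most abundant of the family, was at 23.1 and 17.8 FPKM, and Kdm5a at 9.55 and 7.80 FPKM. The share of Kdm5b in the family sum was 12.1% in ethanol and 23.1% in 4-OHT. Of the H3K27 demethylases, Kdm6b, which is inducible by inflammatory signals in macrophages, was at 8.05 and 11.1 FPKM, 1.34-fold higher, while Kdm6a was at 8.24 and 7.94 FPKM. The summed level of the stromal markers was 33.4 and 544 FPKM in the same comparison and that of the macrophage markers 706 and 1534 FPKM; their part in the Kdm5b and Kdm6b values was not tested.

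**Figure D3:**
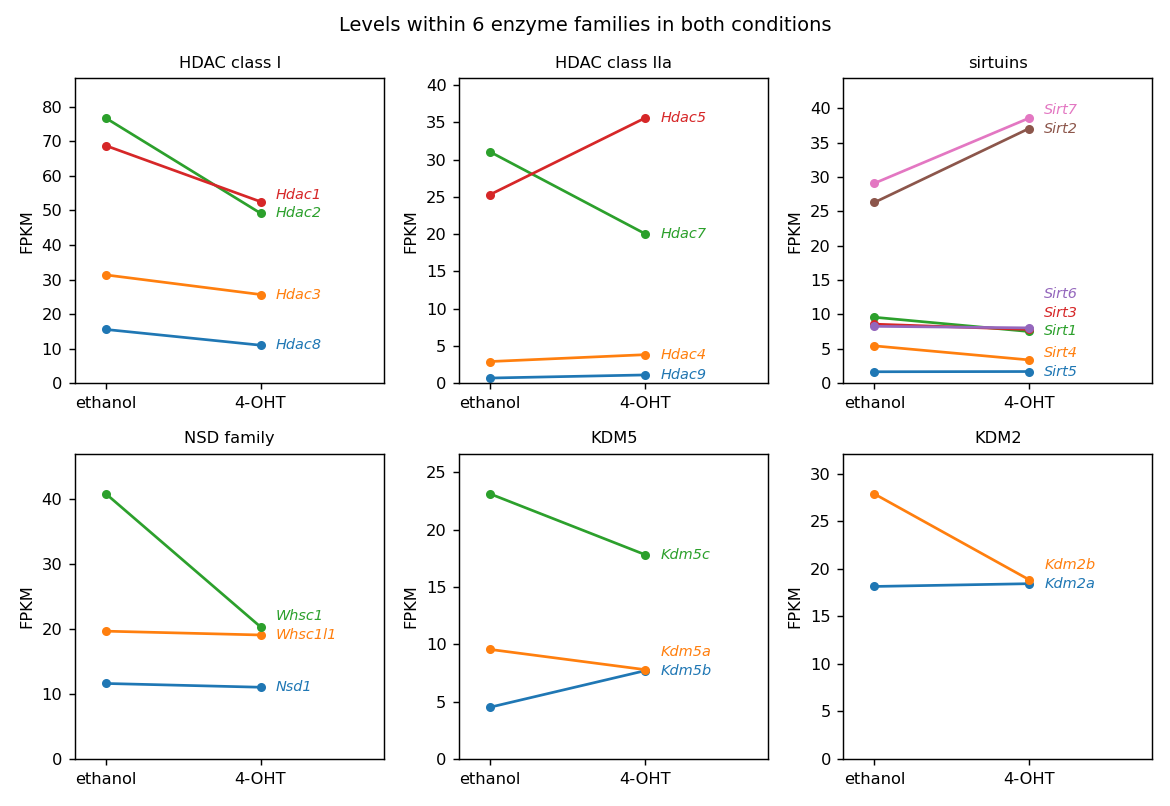
FPKM of each gene in 6 enzyme families (linear axes from 0), with lines joining the authors' single values for ethanol and 4-OHT. The lines of Hdac1 and Hdac2 and of Hdac5 and Hdac7 cross, Whsc1 comes down to the level of Whsc1l1, and Kdm5b reaches that of Kdm5a.

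The summed levels of writers and erasers were lower for each of 3 marks, and for H3K4 and H3K36 the genes summed decided which side kept less. For H3K9 no other choice of genes was summed. The 6 H3K9 methyltransferases summed to 141 FPKM with ethanol and 121 FPKM with 4-OHT (85.6% of ethanol), and the 6 H3K9 demethylases of the KDM3 and KDM4 families to 99.1 and 83.2 FPKM (83.9%). The 5 H3K4 demethylases kept 83.7% of their ethanol sum. The H3K4 writers among the members, Setd1a and Setd7, kept 84.6%, or 77.8% with the non-members Mll1, Mll2, Mll3 and Wbp7 added. The 4 H3K36 methyltransferases kept 72.8% of their sum, and 89.5% without Whsc1. The H3K36 demethylases Kdm2a and Kdm2b kept 81.0%, or 83.1% with the KDM4 genes added. The H3K36 writers were thus below the erasers with Whsc1 and above them without it. Such sums describe transcript levels and say nothing of the marks, which were not measured.

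The partners of the enzymes, from lists of complexes, had median log2 ratios from -0.54 to -0.06 with the filter of 1 FPKM, against -0.28 for the members. COMPASS core and MLL genes were lower in 12 of 12 (median -0.42), or 11 of 12 under median-of-ratios scaling. The lowest ratios were those of Mll3, an H3K4 monomethyltransferase of enhancers, at 15.3 FPKM with ethanol and 8.20 FPKM with 4-OHT, and the core subunit gene Ash2l, at 26.97 and 16.6 FPKM. Mll5 had the highest ratio and was near equal, at 20.8 and 20.1 FPKM. The COMPASS and MLL list had 17 names, of which 12 were found in the table. Wbp7, added to the H3K4 writers above, was not on that list. HP1 and H3K9 cofactor genes were lower in 8 of 8 (median -0.54), or 7 of 8 under median-of-ratios scaling. The HP1 genes Cbx5, at 35.1 and 18.4 FPKM, and Cbx1, at 58.7 and 36.5 FPKM, had the lowest ratios. Atf7ip had the highest of those compared and was near equal, at 18.8 and 18.1 FPKM. NuRD genes were lower in 9 of 11 (81.8%, median -0.22) and SIN3 genes in 8 of 12 (66.7%, -0.20). NCoR genes were lower in 4 of 5 (80%, -0.19) and CoREST genes in 5 of 9 (55.6%, -0.18). Of all compared rows 55.1% were lower, which is near the CoREST share. The opposing histone acetyltransferases had a median of -0.06, near that of all rows (-0.07), or 0.01 under median-of-ratios scaling. Lower were 9 of 12, or 6 of 12 under that scaling, where 50% of all rows were lower. Kat2a (GCN5), the lowest of the list, was at 38.9 and 24.3 FPKM, and Ncoa3, the highest, at 9.43 and 15.2 FPKM. The coactivator genes Crebbp and Ep300 were at 8.69 and 8.49 FPKM and at 16.7 and 17.6 FPKM. Of the JmjC genes listed under other names 10 of 13 were lower (median -0.16), including Jmjd5, now Kdm8, at 4.53 and 3.15 FPKM. Jhdm1d, now Kdm7a, was the highest of that list, at 5.42 and 8.39 FPKM. SET-domain genes with other names were lower in 8 of 11 (median -0.18), with Smyd2 at 36.1 and 24.6 FPKM. The S phase and mitosis lists, with medians of -0.52 and -0.79, lay below all of these except the HP1 list, which lay between them.

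**Figure D4:**
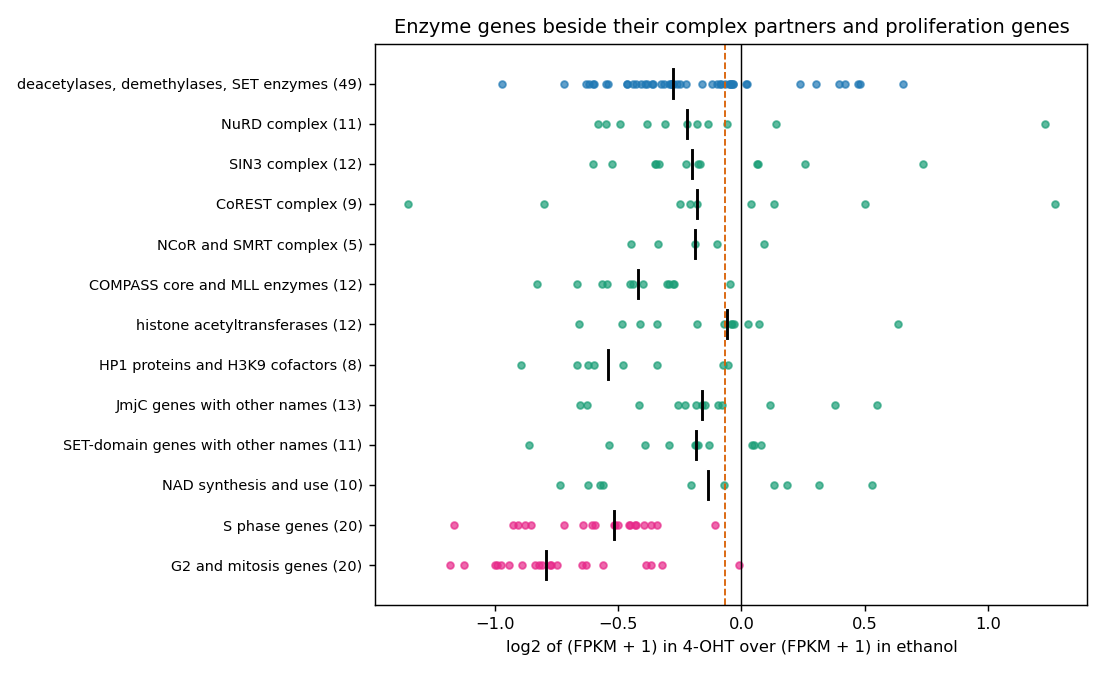
Log2 of (FPKM + 1) with 4-OHT divided by that with ethanol for the enzyme genes (blue), the lists of complex partners and related genes (green) and proliferation genes (pink), with the number compared in brackets, black bars for medians and the dashed line at the median of all compared rows (-0.07). The COMPASS and HP1 lists have no gene above 0, while the NuRD and CoREST lists each hold a gene above 1.

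The promoters of the members were searched for 2 motifs, since MYC and E2F factors are known regulators of growth and cell-cycle genes. RefSeq promoters (GRCm38.p6, 250 bases before to 50 bases after a transcript start) were matched for 41 of the 52 members. The MYC/MAX E-box CACGTG was found in 5 of these 41 genes (12.2%), the same share as in the 8662 genes of all compared rows with a promoter (12.2%). The E2F motif was searched on both strands as TTCCCGC and TTCGCGC, with TTGCCGC and also TTGGCGC as further forms; a match can share end bases with an E-box, and a gene counts once per motif. It was found in 8 of 41 genes (19.5%), against 20.01%. Over all 32851 promoters of the table the shares were 7.15% and 9.57%. Compared members with an E2F match had a median log2 ratio of -0.40 (6 lower, 2 higher) and those without of -0.28 (25 lower, 5 higher). With the E-box the median was -0.09 (4 lower, 1 higher) and without it -0.29 (27 lower, 6 higher). The 4 promoters with a match printed here are in lower case with the match in capitals and are read along the gene: Suv39h1 (chrX:8074312-8074611, minus strand, 1 of its 2 listed promoters), Suv39h2 (chr2:3474937-3475236, minus strand) and Kdm5b (chr1:134559928-134560227, plus strand) with E2F letters, and Hdac5 (chr11:102230123-102230422, minus strand) with the E-box. They were chosen because E2F matches stand in the promoters of genes on both sides of the range of ratios, the Suv39h genes below and Kdm5b above, and because Hdac5 was the 1 higher gene of the 5 with an E-box.
Suv39h1: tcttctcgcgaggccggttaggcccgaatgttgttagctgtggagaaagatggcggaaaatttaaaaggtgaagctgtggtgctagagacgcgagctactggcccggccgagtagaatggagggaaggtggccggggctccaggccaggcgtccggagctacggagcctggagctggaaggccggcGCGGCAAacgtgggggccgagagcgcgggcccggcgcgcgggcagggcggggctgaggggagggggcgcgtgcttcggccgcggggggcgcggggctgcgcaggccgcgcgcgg
Suv39h2: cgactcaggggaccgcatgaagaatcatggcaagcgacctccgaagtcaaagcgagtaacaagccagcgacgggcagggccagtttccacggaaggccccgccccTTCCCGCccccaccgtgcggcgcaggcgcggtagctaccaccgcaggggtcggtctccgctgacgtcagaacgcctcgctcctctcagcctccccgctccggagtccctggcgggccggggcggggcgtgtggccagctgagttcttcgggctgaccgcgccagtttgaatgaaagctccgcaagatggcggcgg
Kdm5b: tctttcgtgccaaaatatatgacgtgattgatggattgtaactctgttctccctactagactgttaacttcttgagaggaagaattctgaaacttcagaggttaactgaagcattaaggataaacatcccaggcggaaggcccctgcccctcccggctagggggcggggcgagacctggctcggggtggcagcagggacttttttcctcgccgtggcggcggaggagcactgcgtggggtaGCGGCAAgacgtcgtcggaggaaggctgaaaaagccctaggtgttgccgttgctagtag
Hdac5: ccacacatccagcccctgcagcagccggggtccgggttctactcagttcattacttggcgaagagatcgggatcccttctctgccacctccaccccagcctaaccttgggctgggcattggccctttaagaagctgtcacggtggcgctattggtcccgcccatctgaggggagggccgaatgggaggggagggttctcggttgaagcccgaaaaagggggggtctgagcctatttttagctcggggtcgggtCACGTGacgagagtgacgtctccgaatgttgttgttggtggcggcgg

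In Suv39h1 and Kdm5b the match is on the reverse strand (GCGGCAA), and in Suv39h2 it is TTCCCGC on the forward strand. The Kdm5b match begins 9 bases before the listed start site, and those of Suv39h1 and Suv39h2 begin 64 and 145 bases before it. The Hdac5 E-box begins at base 4 counted from the listed start. The 50 bases after the start were also looked for in the transcripts of GENCODE, another gene annotation. They were found for Suv39h2 and Kdm5b but not for Suv39h1 and Hdac5, so the starts of these last genes are less sure. A match is a run of letters and not a measured binding site.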

How the data were processed

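RNA of 6 libraries (3 ethanol, 3 4-OHT) was sequenced from TruSeq RNA v2 libraries, per the labels' protocols. CASAVA, TopHat2 2.0.9, Cufflinks 2.1.1 and build mm9 are named in the submitters' processing notes. The authors deposited 1 FPKM per gene and condition; how libraries were combined or scaled is not stated. The deposited log2 column of fold changes equals log2 of 4-OHT over ethanol with no pseudocount (15756 of 15756 rows above 0 in both, within 0.01). Depth is unknown, and 4-OHT cannot be tested against ethanol.

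Ratios were log2 of (FPKM + 1) over rows whose mean reached 1 FPKM with neither value at 0. Their calculation was checked on ethanol values multiplied by set folds without noise, which says nothing of the spread of real values. Members, classes and gene lists were chosen with earlier results of these data known. Every compared member may be named, with list genes to be picked by extreme ratio or by level, of which few are printed; Nampt, Parp1, Cd38, Crebbp, Ep300, Jmjd5, Smyd2 and Wbp7, and the further sums by mark, were chosen after their values were seen. Loci are those of the table on mm9, with 1 added to the start: lengths equalled those of RefSeq genes in 6341 rows counted from 0 and 437 from 1. The kit does not mark strand, so reads of overlapping genes cannot be separated. Scripts ran in Python 3.11.15 with pandas 2.3.3, numpy 2.4.6 and, for plots, matplotlib 3.10.9. Alternatives changed the pseudocount, filter, scaling, source of the ratio and merged rows.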

Additional observations from a re-analysis of the deposited data

How the results depend on the processing

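No member at least 1.5-fold different changed direction under any of 8 alternatives, and 41 of 49 members kept their direction throughout. The other 8 (Kdm3b, Kdm4b, Kdm6a, Nsd1, Setd3, Sirt5, Sirt6 and Whsc1l1) were near equal. The member median ran from -0.29 to -0.20. With median-of-ratios scaling, which shifts all ratios upward, 16 members were higher (32.7%, against 50% of all rows). At least 1.5-fold lower were 2 members (4.08%, against 9.90% of all rows). Using a pseudocount of 0.1, or else the authors' deposited fold changes, 1 member (Whsc1) was at least 2-fold lower. The share of all rows at 2-fold was not computed for these settings. With a pseudocount of 0.1, 8 members were at least 1.5-fold lower (16.3%, against 15.8% of all rows), as Setd4 and Sirt4 entered. The authors' deposited fold changes gave 16.3% of members, against 16.0% of all rows. The median of other SET-domain enzymes was -0.45 with a pseudocount of 0.1, -0.47 with the authors' deposited fold changes, -0.46 under quantile normalization and -0.22 with a minimum of 5 FPKM, which removes Setd4. That of class IIa deacetylases was -0.065 with a minimum of 5 FPKM, which removes Hdac4, and 0.13 under quantile normalization. That normalization also gave -0.14 for sirtuins and -0.28 for mitochondrial sirtuins; the cause was not tested. With no filter the KDM4 median was -0.15, since Kdm4d enters. The erythroid marker median, 1.09 over 3 genes, was -0.12 with a minimum of 5 FPKM, where only Tfrc is left. With that minimum the NAD list median was -0.56 and that of T and natural killer cell markers 1.70. No paired analysis was possible because each condition has a single deposited value, and libraries could not be left out for the same reason.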

Other observations

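Paralogs within the repressor complexes also differed in direction. The values below were chosen after they were seen and have no test. In the NuRD complex the remodelling ATPase gene Chd4 was at 73.1 FPKM with ethanol and 62.6 FPKM with 4-OHT, while its paralog Chd3 was at 2.74 and 7.79 FPKM, 2.35-fold higher. The scaffold gene Sin3a was at 27.8 and 21.7 FPKM and its paralog Sin3b at 47.1 and 79.1 FPKM, 1.66-fold higher. In the CoREST complex the corepressor gene Ctbp1 was at 166 and 95.1 FPKM, 1.74-fold lower, and Ctbp2 at 3.20 and 9.15 FPKM. Rcor2, a CoREST scaffold gene, was at 26.6 and 9.80 FPKM, 2.56-fold lower, whereas Rcor1 was at 21.8 and 19.1 FPKM. In these complexes the genes that were at least 1.5-fold higher were thus Chd3, Sin3b and Ctbp2. That is 1 of 11 compared NuRD genes (9.09%), 1 of 12 SIN3 genes (8.33%) and 1 of 9 CoREST genes (11.1%). The share of all compared rows was larger, at 19.5%. The neutrophil, macrophage and stromal marker lists were higher in the same comparison, with median log2 ratios of 3.26, 1.05 and 3.60, and their part in these values was not tested.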
